A study of Saccharomyces cerevisiae with 14 samples.

Results

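The arrays described here follow budding yeast, Saccharomyces cerevisiae strain FF18984, in the first 30 min of a weak dose of methyl methanesulfonate (MMS), given at 0.00125%. They were chosen by strain, time and dose: 4 arrays of the 14 in the series, made up of low-dose cultures in F1 and in YPD and mock-treated cultures in F1 and in YPD. Per the labels, F1 and YPD cultures in mid log phase at 30°C were each divided into aliquots, so that the low-dose sample and the mock sample of a medium came from 1 culture. Total RNA was copied into cDNA labelled with 33P and hybridised to nylon membranes that carry 2 spots per gene. The samples of a medium were hybridised in turn to 1 membrane, which was stripped in between, and the order is not given. Each condition is therefore 1 array, and the comparison is of 2 pairs, low dose against mock in F1 and low dose against mock in YPD.

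MMS methylates bases in DNA. In budding yeast the 3-methyladenine glycosylase Mag1 opens base excision repair of such lesions, homologous recombination and translesion synthesis let replication get past those that remain, and the checkpoint kinases Mec1, Rad53 and Dun1 raise the supply of deoxynucleotides through the ribonucleotide reductase genes RNR1 to RNR4. Strong alkylation is also known to lower ribosomal protein transcripts and to raise stress genes.

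Values are log2 intensities after subtraction of the local background, on a scale where the median positive spot of each array was set to 1 before quantile normalization, so that 1 unit of difference stands for 2-fold. Signal was measured for 6094 open reading frames. The median signal before scaling was 1786 and 3198 in the low-dose arrays of F1 and YPD, against 263.0 and 265.3 in the mock arrays. The 2 spots of a gene ranked genes with a Spearman correlation of 0.872 and 0.923 in the low-dose arrays, against 0.675 and 0.822 in the mock arrays, so that the F1 mock array was the least repeatable of the 4. Between 8.06% and 10.5% of genes per array lay at or below the background, and 3783 genes (62.1%) had every spot above it on all 4 arrays. Of the cell-type markers, the a-specific ASG7 stood between the 95.1th and 97.4th percentile of all genes and STE2 between the 69.8th and 88th, but STE6 between the 26.1th and 66.6th, AGA2 between the 20.3th and 70.1th and MFA1 between the 38.5th and 74.8th. Among the alpha-specific genes MF(ALPHA)1 stood between the 25.7th and 38.4th and SAG1 between the 87.7th and 94.6th. Precision is limited by how few arrays there are. Nothing in the labels says that the cultures were independent replicates, so a p-value reflects the spread of these samples alone, which may be technical.

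At this dose and time no gene could be told from mock in the fit over all genes. limma with the membrane as a block called 0 of 6094 genes (0%) at a Benjamini-Hochberg adjusted p under 0.05. An unadjusted p under 0.05 was found for 352 genes, beside 305 that chance alone would give. The smallest adjusted p was 0.185. That value belonged to RPL35A and to MTC7. The fit has 1 residual degree of freedom per gene, which limits what it can call.

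The differences in the 2 media had little in common. Over the 3783 genes above background, the standard deviation of the log2 difference was 0.71 in F1 and 0.47 in YPD, with medians of -0.02 and 0.00. In F1, 296 genes (7.82%) were more than 2-fold higher and 249 (6.58%) more than 2-fold lower at the low dose, and in YPD 86 (2.27%) were higher and 77 (2.04%) lower. The Pearson correlation across genes between the F1 and the YPD difference was 0.080, and 52.8% of genes had the same sign in both. Among the 946 genes with the highest mean level the correlation was 0.21. Genes are not independent replicates, and all 4 arrays carry the same spot layout. Within a medium, the differences read from the first and from the second spots correlated at 0.40 in F1 and 0.28 in YPD. Of these 3783 genes, 15 were past 2-fold the same way in both media with agreement of every single spot pair. They were 5 genes higher (0.132%) and 10 genes lower (0.264%) at the low dose. A further 13 genes went past 2-fold in opposite directions, 9 of them higher in F1 and lower in YPD (0.238%) and 4 lower in F1 and higher in YPD (0.106%). At 1.5-fold, 132 genes went the same way and 77 opposite ways.

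RPL35A, which encodes a protein of the large ribosomal subunit, was the gene that was lower most clearly in both media. Its level was 0.79 at the low dose against 2.66 in mock in F1, and 1.29 at the low dose against 3.55 in mock in YPD. Both low-dose arrays lay below both mock arrays. The genes for which this is said, here and below, were picked for large differences the same way in both media, which favours such a gap. The share of all genes that have it is not given, so it sets none of them apart. RPL35A was 3.65-fold lower in F1 and 4.79-fold lower in YPD. Its single spot pairs ran from -2.23 to -1.51 in F1 and from -3.07 to -1.45 in YPD. The limma estimate was -2.06 ± 0.26 (SE), with an adjusted p of 0.185 in the same fit. The adjusted p of this limma test was 0.034 under cyclic loess and 0.322 after centring on plate column medians. Over the alternatives the estimate ran from -2.06 to -0.75. RPL35B, its paralog, differed by -0.65 in F1 and -0.40 in YPD, an estimate of -0.52 ± 0.25. Cross-hybridisation between the copies was not tested.

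GAL2, the galactose permease, had levels of -0.14 at the low dose against 1.52 in mock in F1, and -0.79 at the low dose against 1.18 in mock in YPD. It was 3.16-fold and 3.91-fold lower, and its groups did not overlap (-1.81 ± 0.39). RET2, the delta subunit of the coatomer that coats Golgi-to-ER vesicles, stood at -0.75 against 1.91 in mock in F1, and at -0.32 against 1.15 in mock in YPD (-2.07 ± 0.44). Its single spot pairs spread widely, from -4.21 to -1.11 in F1 and from -2.68 to -0.26 in YPD. PUF2, a Puf-family protein that binds mRNAs of membrane proteins, stood at -2.01 against 0.10 in mock in F1, and at -2.09 against -0.47 in mock in YPD (-1.86 ± 0.50). Both low-dose arrays of PUF2 lay below both mock arrays. Its low-dose levels were close to the lowest the scale gives, about -2.38 for a gene at or below the background. Over the alternatives the estimate ran from -2.06 to -0.26 for PUF2 and from -2.07 to -0.31 for RET2, so the sizes depend on the processing.

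BUD3, which marks the axial bud site, had levels of -1.35 at the low dose against 0.34 in mock in F1, and -1.44 against 0.16 in mock in YPD (-1.65 ± 0.52). The array carries a second probe for the same locus under the older name YCL012W, which RefSeq lists as a synonym of BUD3. That probe gave the opposite sign in F1, with 0.32 at the low dose against -1.51 in mock, and the same sign in YPD, with -0.60 at the low dose against 0.88 in mock. The 2 probes thus disagree in F1, and the lower value of BUD3 was not seen at both.

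YDR417C is an open reading frame that RefSeq does not list. It overlaps RPL12B on the opposite strand, and the random-primed cDNA cannot tell such partners apart. It was at 0.82 at the low dose against 2.09 in mock in F1, and at 2.30 against 3.60 in mock in YPD (-1.28 ± 0.25). RPL12B itself, a protein of the large ribosomal subunit, differed by -0.66 in F1 and -0.58 in YPD (-0.62 ± 0.23), and its copy RPL12A by -0.69 and -0.41. All of these had the same sign in both media, and none passed the test.

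The other 4 lower genes had smaller differences. YLR334C, an open reading frame absent from RefSeq, had a high level throughout, at 3.39 at the low dose against 4.47 in mock in F1, and 2.89 against 4.10 in mock in YPD (-1.15 ± 0.22), and its single spot pairs in F1 were -1.09 and -1.08. YDR131C, an F-box protein, differed by -1.10 in F1 and -1.39 in YPD. ECM29, which tethers the proteasome core to its cap, differed by -1.19 and -1.01, and its estimate ran from -1.23 to -0.15 over the alternatives. ERR2, one of the subtelomeric enolase-related genes, differed by -1.02 and -1.30. ERR1, whose sequence is close to that of ERR2, differed by -1.13 and -0.88, and ERR3 by -0.11 and 1.11. In ERR3 1 or more spots lay at or below the background, and its YPD mock level was -2.04. ERR3 therefore does not settle whether the sign is the same over the family. For the genes beside the 2-fold limit, ECM29 was just inside it at -1.01 in YPD, and EXP1 was just outside it at -0.99 in YPD, with -1.70 in F1.

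On the higher side, TIF1, which encodes the translation initiation helicase eIF4A, stood at 2.63 at the low dose against 0.80 in mock in F1, and at 2.80 against 1.46 in mock in YPD. It was 3.55-fold and 2.54-fold higher, an estimate of 1.59 ± 0.27 with an adjusted p of 0.837 in the limma fit. TIF2, which encodes the same protein, differed by 1.07 in F1 and 0.04 in YPD. YGL108C, a gene of unknown role, stood at 1.41 against -0.69 in mock in F1, and at 2.52 against 1.22 in mock in YPD (1.70 ± 0.35). In TIF1 and YGL108C both low-dose arrays lay above both mock arrays.

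CAF4, a WD40 protein of mitochondrial fission, stood at 2.02 against 0.13 in mock in F1, and at 2.74 against 1.58 in mock in YPD (1.52 ± 0.31). Its paralog MDV1 differed by -0.42 and 0.18. MAS2, the alpha subunit of the mitochondrial processing peptidase, differed by 1.02 in F1 and 1.14 in YPD, and HMS2, a protein with a domain like that of heat shock factors, by 1.04 and 1.03. HMS2 and MAS2 were just inside the 2-fold limit, and STE23, a protease that takes part in a-factor maturation, was just outside it at 0.93 in F1 with 1.11 in YPD. The next genes in rank included LSM2, a subunit of the Lsm ring that promotes mRNA decapping and binds U6 RNA, at 0.91 in both media (the mean over both was -0.12 without background correction), and YJU3, a monoglyceride lipase, at 0.93 and 0.89. STE23 and YJU3 lie in plate column 24, and after centring on column medians they were at 0.66 and 0.72 (STE23) and at 0.66 and 0.50 (YJU3).

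**Figure D1:**
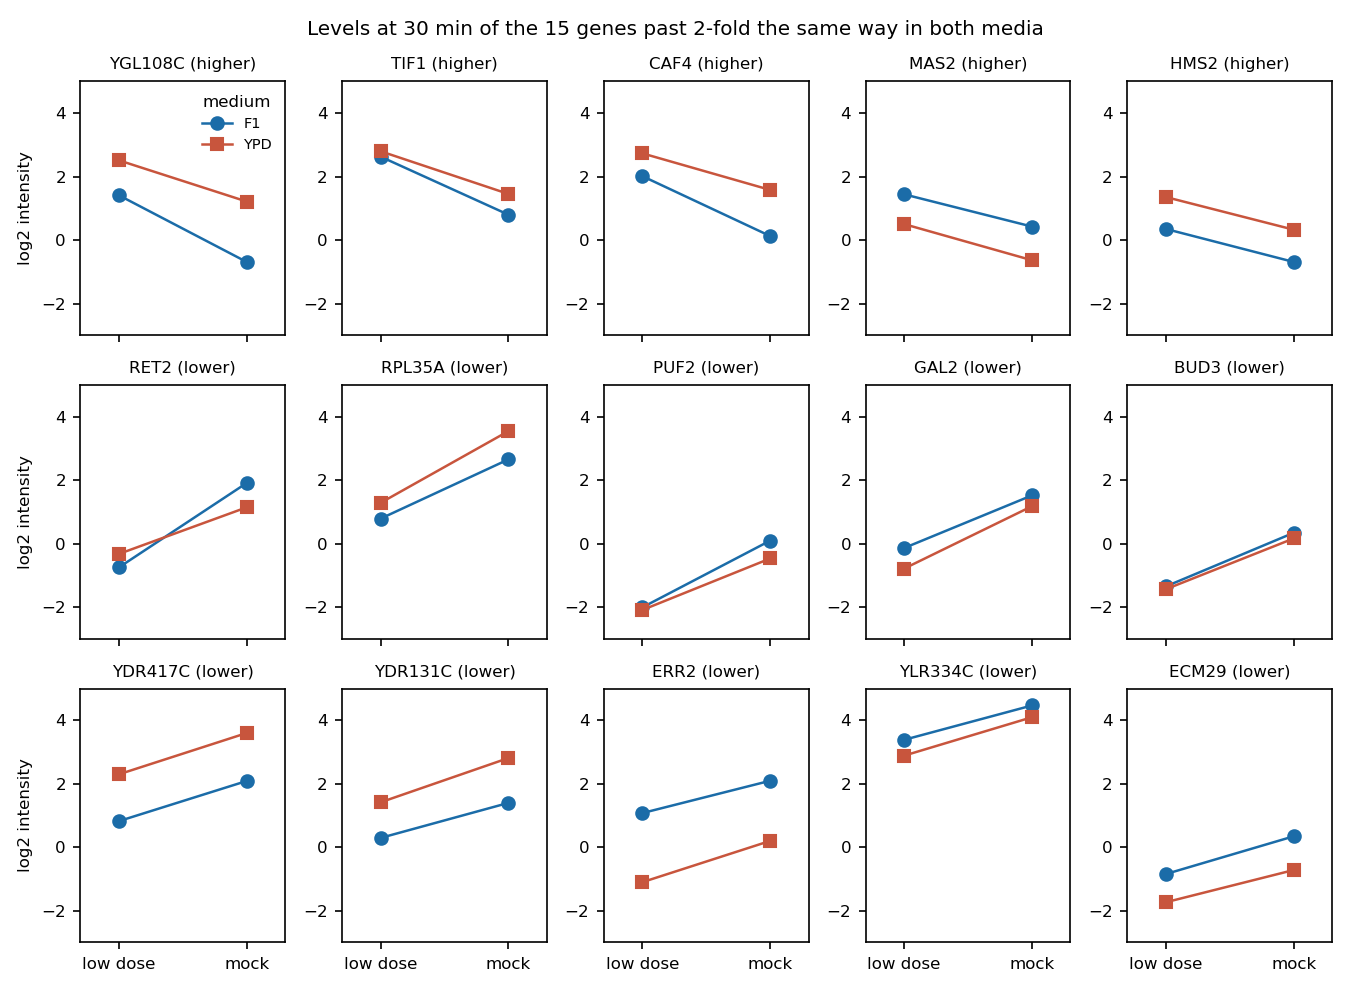
Log2 intensity at 30 min of the 15 genes past 2-fold the same way in both media, at the low dose on the left and in mock on the right, with F1 as circles and YPD as squares. Each point is 1 array. RPL35A has levels of 0.79 and 1.29 at the low dose against 2.66 and 3.55 in mock.

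The differences moved with the plate column from which a gene was spotted. Plate columns 22 to 24 hold 415 of the 3783 genes (11%), and all 5 genes past 2-fold higher in both media were among them, as were 10 of the 12 leading higher genes. In YPD the median difference of the genes in those columns was 0.28 against 0.00 over all columns, 76.9% of them were higher at the low dose, and they made up 33 of the 86 genes past 2-fold higher in that pair. In F1 the median in those columns was 0.07. At the other edge, columns 1 to 3 had a median of -0.16 in YPD and 0.10 in F1, and held 6 of the 9 genes past 2-fold higher in F1 and lower in YPD. They hold 407 of the 3783 genes (10.8%). Among them were 3 of the 10 genes past 2-fold lower in both media, and 30 of the 77 past 2-fold lower in the YPD pair. When each array was centred on the median of each column, an alternative chosen after the values were seen, 0 genes remained past 2-fold higher in both media, with TIF1 at 1.89 in F1 and 0.998 in YPD, CAF4 at 1.63 and 0.77, and YGL108C at 2.08 and 0.79. On the lower side 8 of the 10 genes remained, namely RPL35A (-2.03 and -2.03), GAL2 (-1.57 and -1.88), RET2, PUF2, BUD3, YDR417C, YDR131C and ECM29, and TRM3 and YOR072W joined them. YLR334C was then at -0.94 in F1 and ERR2 at -0.96. EXP1, in column 1, was then at -1.82 in F1 and -0.68 in YPD. Genes past 2-fold in opposite directions were also found after this centring. YCL012W, GCD11, PRS2, WWM1, INP51 and URA10 were higher in F1 and lower in YPD, and ILV6, APM2 and SPT5 went the other way. What gave rise to the column pattern was not tested.

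**Figure D2:**
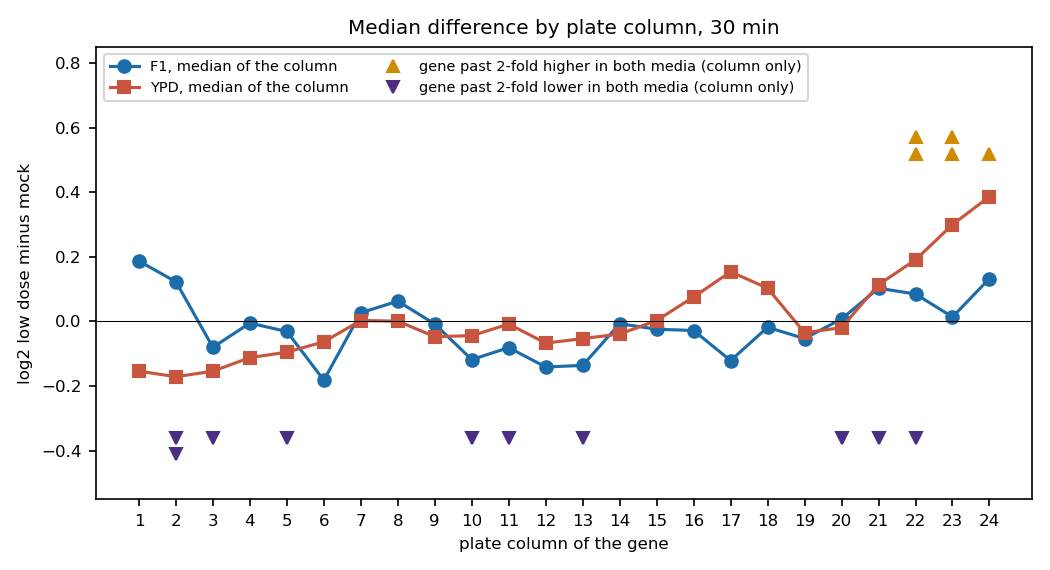
Median log2 difference of low dose minus mock over the genes of each plate column, for F1 (circles) and YPD (squares). Triangles mark only the column of each gene past 2-fold in both media, higher ones pointing up and lower ones down, with no value on the vertical axis. The YPD median reaches 0.39 in column 24, and the 5 higher genes sit in columns 22 to 24. The 10 lower genes are spread over 9 columns, with 3 of the genes in columns 1 to 3.

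With the genes that had a spot at or below the background kept, 16 more genes were past 2-fold higher and 28 more lower in both media, and 37 in all went past 2-fold in opposite directions. Named after their values were seen, the strongest levels among them belonged to HYP2, which encodes the translation factor eIF5A, and to MTC7, its neighbour on the chromosome. HYP2 stood at 0.16 at the low dose against 3.46 in mock in F1, and at 3.83 against 5.15 in mock in YPD (-2.31 ± 0.42). MTC7 stood at 0.02 against 2.28 in mock in F1, and at 2.82 against 4.66 in mock in YPD (-2.06 ± 0.25). The single spot pairs in F1 lay far apart, from -4.83 to -1.76 in HYP2 and from -3.60 to -0.935 in MTC7. Since both genes had 1 or more spots at or below the background, the size of their F1 differences is uncertain. Under cyclic loess MTC7 and RPL35A were the 2 genes called, both lower, each with an adjusted p of 0.034, and HYP2 had 0.103. On the higher side REV3, the catalytic subunit of the translesion polymerase zeta, stood at 0.94 against -1.32 in mock in F1, and at 0.16 against -1.79 in mock in YPD. EXO1, a nuclease that resects DNA ends, stood at -0.42 against -2.19 in F1 and -0.81 against -2.14 in YPD, with 2 of its 4 arrays at or below the background. Genes linked to DNA recombination or repair were also among the 28 lower ones. HOP2 differed by -2.66 in F1 and -1.62 in YPD, and HSM3 by -1.32 and -1.12. REV3 and EXO1 therefore do not stand for repair genes as a group.

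None of the genes described here for the response to strong MMS passed the test. RNR3, the ribonucleotide reductase subunit that responds most strongly to DNA damage, was at -0.44 at the low dose against 0.13 in mock in F1, and at -0.58 against -0.49 in mock in YPD, a difference of -0.57 and -0.09. RNR1, the main large subunit, differed by 0.27 and 0.11. The small subunit genes RNR2 and RNR4 differed by 2.32 and 0.98 in F1 but by -0.03 and 0.01 in YPD. In RNR2 1 or more spots lay at or below the background, and its single spot pairs in F1 ran from 0.47 to 4.16. Whether the response of RNR2 and RNR4 differs between the media was not tested, since each medium is 1 pair.

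MAG1 differed by -0.25 in F1 and 0.53 in YPD, with 2.48 and 2.56 at the low dose against 2.72 and 2.03 in mock. RAD54, a translocase of homologous recombination, differed by 0.21 and 0.10, and DDR48, a stress-induced protein, by -0.32 and 0.09. The oxidoreductase gene YNL134C differed by -0.01 and 0.58. HSP12, a small stress protein of the membrane, differed by 0.25 and -0.23, and SSA2, an Hsp70 chaperone, by 0.04 and 0.80, with -0.22 and 0.41 after column centring. HXK2, the main hexokinase, differed by 1.69 in F1, at 3.28 against 1.58 in mock, and by 0.18 in YPD. PDC5, a pyruvate decarboxylase, differed by 0.36 and 0.38, and lies in column 22. After column centring its YPD difference was 0.03. PMA1, the plasma membrane proton pump, differed by 3.15 and 0.65, but its single spot pairs ran from 0.63 to 5.68 in F1 and from -0.27 to 1.56 in YPD. SEG2, an eisosome protein, differed by 1.80 and 1.51, with single spot pairs in F1 from -0.12 to 3.72, and lies in column 23. After column centring the YPD difference of SEG2 was 1.00. In PMA1 and in SEG2 1 or more spots lay at or below the background. HUG1 was not analysed here.

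**Figure D3:**
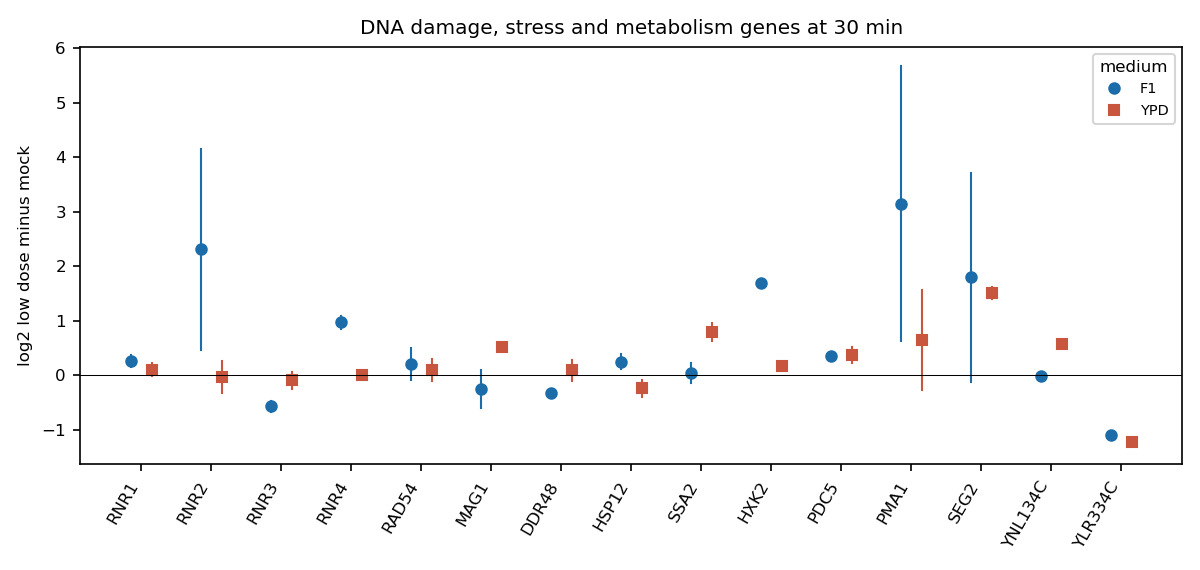
Log2 difference of low dose minus mock at 30 min for DNA damage, stress and metabolism genes, with F1 as circles and YPD as squares. Points are the means over the spots and lines span the lowest and highest single spot pair. RNR2 and PMA1 have wide lines in F1, while YLR334C is below 0 at every spot in both media.

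The 27 gene lists had medians within 0.48 of 0 in F1 and within 0.22 in YPD, beside -0.02 and 0.00 over all genes. Over all genes 26.2% were higher in both media and 26.2% lower in both. In 13 of the 27 lists the medians had the same sign in both media, and no list had a member that passed the test. For cytosolic ribosomal proteins, 45 of 122 measured genes (36.9%) were lower in both media and 21 (17.2%) higher, with medians of -0.21 in F1 and -0.04 in YPD. RPL35A was the 1 member past 2-fold. RPP1A, an acidic stalk protein, differed by -1.05 and -0.75 (-0.90 ± 0.22), and RPL33B, a large subunit protein in column 24, by 0.72 and 1.07, or 0.46 and 0.68 after column centring. The median of the mean over both media was -0.11, but 0.04 under median centring, so its direction depends on the scaling. For ribosome biogenesis genes the medians were -0.01 and 0.13, with 17 of 53 higher and 11 lower in both media. Among the higher was RPA43, a subunit of RNA polymerase I, at 1.40 and 0.70. RPA43 lies in column 23, and its YPD difference was 0.20 after column centring.

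Homologous recombination genes had medians of 0.38 in F1 and 0.16 in YPD, with 15 of 25 (60%) higher in both media and 2 (8%) lower in both. Both medians stayed above 0 under every alternative, at 0.02 to 0.40 in F1 and 0.03 to 0.23 in YPD, and without background correction the median of the mean over both media was -0.003. Of the 25 genes, 15 had every spot above background. SAE2, which starts end resection, differed by 0.45 and 0.54, MUS81, a structure-specific nuclease, by 0.38 and 0.40, and RDH54, a translocase, by 0.53 and 0.30. SHU1, a member of the Shu complex, went the other way with -1.04 and -0.38. The base excision and alkylation repair list had medians of -0.32 and -0.01, with 4 of 12 genes higher and 5 lower in both media. APN1, the main abasic endonuclease, differed by 0.29 and 1.08, MGT1, a methyltransferase that repairs O6-methylguanine, by -1.55 and -0.12, and the list's F1 median reached 0.17 under an alternative. DNA damage-inducible genes, with 10 of 27 higher and 6 lower in both, had medians of 0.06 and 0.10. Checkpoint genes had medians of -0.01 and -0.16, with 4 of 19 (21.1%) higher and 6 (31.6%) lower in both media. Of those 19 genes, 8 had every spot above background. RAD9, the checkpoint adaptor, was among the higher ones, at 0.56 and 0.55.

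The list of the plasma membrane proton pump and the vacuolar ATPase had medians of 0.48 in F1 and 0.22 in YPD, with 9 of 16 genes (56.2%) higher and 3 lower in both media. PMA2, a minor copy of the pump, differed by 0.53 and 1.38, or 0.27 and 0.99 after column centring, and VMA13, a regulatory subunit of the vacuolar ATPase, by 0.91 and 1.08. PMA2 is similar in sequence to PMA1, and cross-hybridisation was not tested. Histone genes had medians of -0.20 and -0.20, with 0 of 11 higher and 4 lower in both, and HHT1 at -0.54 and -0.22, but the F1 median reached 0.22 under an alternative. Glycolysis and fermentation genes had medians of 0.01 and 0.12, and among them PGK1, phosphoglycerate kinase, stood at 4.99 at the low dose against 5.47 in mock in F1, and at 3.36 against 5.69 in mock in YPD. Chaperones had medians of -0.08 and 0.21, and cell wall mannoproteins of 0.08 and 0.02, among them FLO11, a flocculin, at -1.27 and -0.54. FLO11 lies in column 1, and was at -1.39 and -0.23 after column centring.

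**Figure D4:**
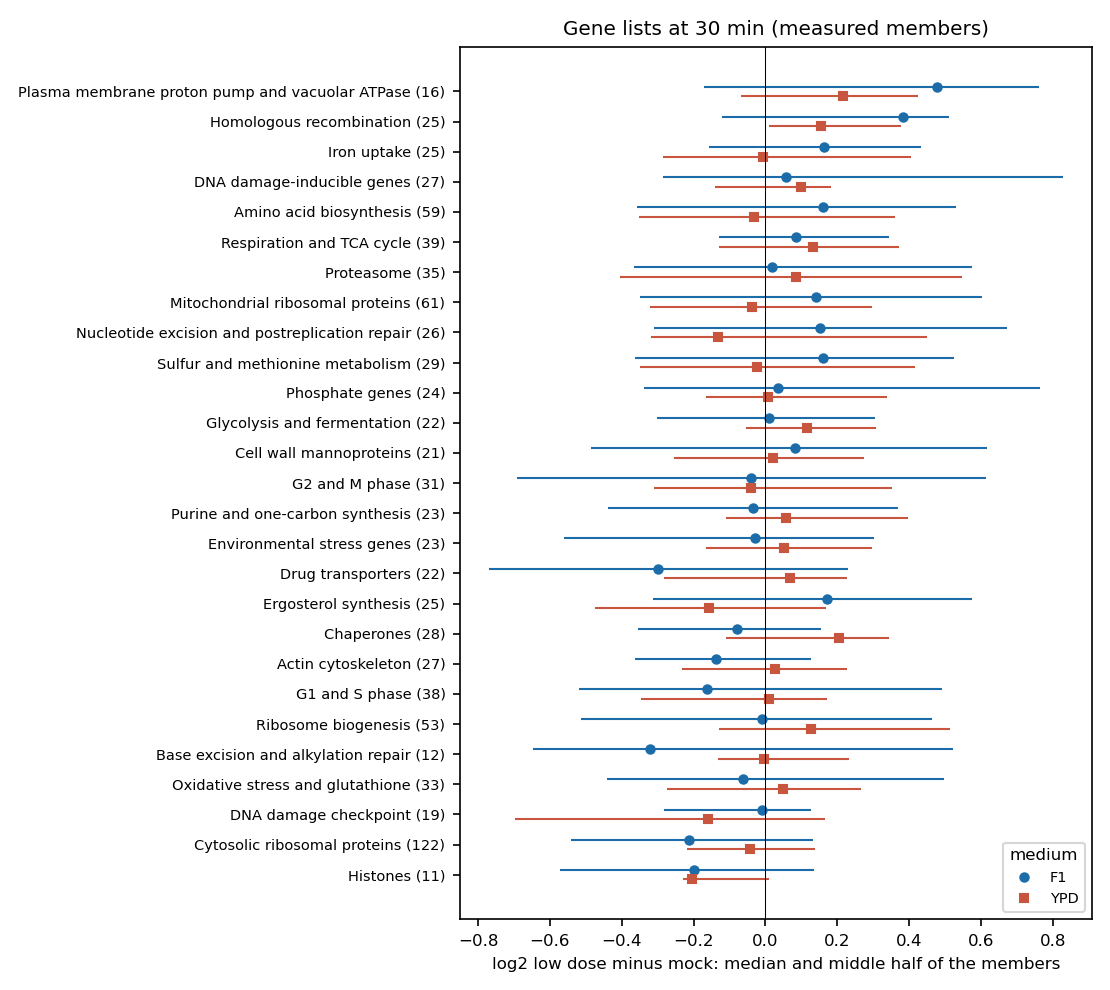
Median (points) and interquartile range (lines) of the log2 difference of low dose minus mock over the measured members of each gene list, for F1 (circles) and YPD (squares), with the number of measured members in brackets. The medians stay within 0.48 of 0, and the 2 media differ in sign in 14 of the 27 lists.

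The 13 genes past 2-fold in opposite directions had sizes like those of the same-way genes. URA10, a minor orotate phosphoribosyltransferase, stood at 2.86 at the low dose against 0.18 in mock in F1, but at -0.10 against 1.51 in mock in YPD. GCD11, the gamma subunit of the initiation factor eIF2, differed by 1.50 in F1 and -2.54 in YPD, and PRS2, a phosphoribosylpyrophosphate synthetase, by 1.65 and -2.39. ILV6, the regulatory subunit of acetolactate synthase, differed by -1.70 and 1.00, and APM2, a clathrin adaptor-like protein, by -1.52 and 1.43.

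The low dose after 1 h was measured on other arrays. The test of the difference, low minus mock at 30 min less that at 1 h, called 0 of 6094 genes (0%) by limma. An unadjusted p under 0.05 was found for 510 genes, beside 305 that chance alone would give, and the smallest adjusted p was 0.489. RPL35A had 1 of the smallest p-values there, with low minus mock differences of 0.50 in F1 and 0.53 in YPD after 1 h, and a difference between the times of -2.58 ± 0.57 with an adjusted p of 0.489. NUP192, a nucleoporin, differed by 2.49 and 0.16 at 30 min and by -3.38 and -1.43 at 1 h (3.73 ± 0.78), where 1 of its F1 arrays was at or below the background. Of the 10 lower genes, 5 had an array at or below the background at 1 h (BUD3, ERR2, GAL2, RET2 and YDR131C), so their differences there were not measured. Of the other 5, YLR334C (-2.50 and -2.08) and YDR417C (-0.61 and -0.65) were lower in both media. Over the 3783 genes, whatever their signal at 1 h, 30.5% were lower in both. Of the 5 higher genes, 4 were higher in both media after 1 h, beside 31.4% of the 3783 genes and 44.8% of those in columns 22 to 24. CAF4 was at 0.16 and 1.46, and TIF1 at 0.08 and 1.14.

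The high dose of 0.0125% at 30 min was compared with the low dose on the same membranes. The median signal of the high-dose arrays before scaling was 6375 in F1 and 2.04e+06 in YPD. After normalization the median difference of high dose minus mock was -0.32 in F1 and 0.03 in YPD. limma over the 6 arrays of 30 min called 14 genes higher (0.23%) and 1 gene lower (0.0164%) at the high dose than at the low dose. CDC39, the scaffold of the CCR4-NOT complex, stood at 6.09 at the high dose and 1.96 at the low dose in F1, and at 3.69 and -0.11 in YPD (3.97 ± 0.44, adjusted p = 0.0137). TOR1, a nutrient-responsive kinase, stood at 5.67 at the high dose and 2.86 at the low dose in F1, and at 4.50 and 1.02 in YPD (adjusted p = 0.031). SPB4, a helicase of large subunit assembly, was the gene that was lower, at -0.64 at the high dose and 2.92 at the low dose in F1, and at 1.14 and 3.50 in YPD (adjusted p = 0.0367). MSB2, TRS65, ADE6 and MAG2 were among the other higher genes. The alternatives gave 0 to 44 calls here. No call was left in 5 of them, namely cyclic loess, median centring, the authors' deposited table, the larger pseudocount and intensities without background correction. High dose against mock shares the mock arrays with low dose against mock, and its values are given side by side. RPL35A was at -1.25 and -2.35 against mock at the high dose, YDR417C at -3.16 and -2.06, and HYP2 at -3.53 and -4.71. PUF2 was at 1.13 and 0.16 and ECM29 at 2.18 and 1.25, opposite in sign to the low dose. RNR2 was at 3.30 and 2.12 and RNR3 at 2.03 and 1.17 at the high dose.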

How the data were processed

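Each array's deposited file lists an intensity for both spots of a gene, raw and after subtraction of the local background, per the file headers, and no normalization between arrays is recorded there. The software and the genome build are not given in the sources used here, so no coordinates are printed. Gene symbols came from the RefSeq gene table for 5567 of 6094 open reading frames. No sequence is shown, and promoter motifs were not analysed here.

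Background-subtracted intensities were divided by each array's median positive value, negative values were set to 0, a pseudocount of 0.187 was added, and log2 values were averaged over the spots of a gene and quantile normalized over all 14 arrays. Low dose was tested against mock on 4 arrays in limma 3.58.1 under R 4.3.3 (lmFit, eBayes with trend) with the membrane as block, the time difference on 12 arrays and high minus low dose on 6, each with Benjamini-Hochberg adjustment over all genes at 0.05. Further work used Python 3.11.15, numpy 2.4.6, pandas 2.3.3 and matplotlib 3.10.9, and the fit was tested on simulated data. Named genes were the 12 per direction with the largest change in the medium where it was smaller, the 3 leading members of each list, the leading genes of both other tests and a fixed set. Related genes, genes with opposite changes, genes with a spot at background, and the list members APN1, MGT1, RDH54 and VMA13 were added after their values were seen. A gene of the fixed set is not reported here. The members and lists were chosen with earlier results of these data known. Alternatives covered scaling, background, pseudocount, the series table of the authors' deposited intensity values, the fit, the fold, the source plate and the plate column.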

Additional observations from a re-analysis of the deposited data

Results flagged for a closer look

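HSP12, a small stress protein, was higher at the low dose than in mock in F1 (0.25) and lower in YPD (-0.23), each at both spots, a difference between the media of 0.485 on the log2 scale. Opposite signs in the 2 media were common, at 1785 of the 3783 genes above background. After column centring HSP12 was at 0.22 in F1 and -0.12 in YPD. The difference between the media was not tested, since each medium is 1 pair.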

How the results depend on the processing

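The limma count of 0 genes for low dose against mock became 2 under cyclic loess, both lower, and stayed at 0 under the other alternatives, including the fit with no replicate block, where 119 genes had an unadjusted p under 0.05. The count of 15 genes past 2-fold the same way in both media was 0 without background correction, 7 with 4 times the pseudocount, 7 with the series table, 4 at 3-fold, 132 at 1.5-fold and 59 with genes at background kept. The F1 pair alone had 545 genes past 2-fold and the YPD pair alone 163. All 15 genes kept their direction under every setting. They were picked for having 1 direction at every spot of these same arrays, so this is not an independent check. For high minus low dose the 15 calls became 0 under cyclic loess, median centring, the series table, 4 times the pseudocount and uncorrected background, 3 with source plate centring and 44 among genes above the background. The cause was not tested. The time difference gave 0 calls under each alternative run. The number of lists with 1 sign in both media was 10 to 17. Each condition is 1 array, so no array could be left out of a pair, and the spread between the spots of a gene, widest in the F1 mock array, limits what can be seen.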
